A study of Mus musculus with 12 samples.

Results

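The 9 genes described here encode core parts of the Hedgehog signalling pathway: the transcription factors Gli1, Gli2 and Gli3, the receptor Ptch1, the signal transducer Smo, the inhibitors Sufu and Hhip, and the co-receptors Boc and Gas1. They were taken by gene identifier from the 21899 genes of the deposited expression table, and all 9 were found. Poly(A) RNA of mouse kidney was sequenced in 12 libraries, 3 in each of 4 groups. The db/m-veh group was db/m mice given vehicle (veh), and db/db mice given vehicle formed db/db-veh. The db/m-GABP-OE group was db/m mice with GABP overexpression, and the db/db-GABP-KD group was db/db mice with GABP knockdown. The db/db genotype removes the signalling form of the leptin receptor and leads to obesity and diabetes, db/m mice are the lean heterozygous controls, and the study uses db/db as its model of diabetic nephropathy. GABP is an ETS-family transcription factor made of a DNA-binding alpha subunit (Gabpa) and a beta subunit (Gabpb1 or Gabpb2), and the series title names GLI1 as its target gene. No age, sex or GABP-changing agent is stated in the sources used. Each group drew on 6 mice, with 3 tissues mixed for an extraction, so libraries of a group may share animals. Whether the 3 libraries are separate pools is not given either, and p-values measure only the spread between these libraries, which may be partly technical.

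Hedgehog ligands bind the receptor Ptch1, which then stops holding Smo inactive. Active Smo, working at the primary cilium, releases GLI proteins from Sufu, and Gli2 and Gli3 then act on target genes. Gli1, Ptch1 and Hhip are themselves transcribed in response to the pathway and are widely read as its output, with Gli1 the one that depends on it most closely. Boc and Gas1 are surface proteins that help ligand reach Ptch1, while Hhip and Ptch1 take ligand away. In adult kidney, Gli1 is known as a marker of scarce perivascular and fibroblast-like cells, and ligand is made by epithelial cells.

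Values are FPKM as the authors deposited them, which scale fragments to gene length and library total. The fragments behind each value could be recovered as whole numbers for all 9 genes, and the libraries held 6.78 to 9.70 M of them. Mitochondrially encoded genes took 47.9% of fragments in db/db-GABP-KD 1 and 58.6% to 86.0% in the other 11 libraries, so nuclear genes as a whole stood higher or lower from library to library. Over the 12897 genes that entered the test, the median log2 fold change was -0.24 in db/db-veh relative to db/m-veh, 0.38 in db/m-GABP-OE relative to db/m-veh and 0.42 in db/db-GABP-KD relative to db/db-veh. The comparison of the vehicle groups shares its libraries with both of the others. Scaling by median of ratios, which sets a typical nuclear gene to the same level in every library, brought these to 0.01, 0.04 and 0.00, and the main results are given on both scales. Values with no scale named are as deposited. The labels name GABP and do not say which subunit was changed. Gabpa, the DNA-binding subunit, was at 1.79, 2.32 and 2.54 FPKM in db/m-veh and 2.20, 2.17 and 1.63 for db/db-veh, then 3.45, 3.35 and 3.71 for db/m-GABP-OE, with 6.62, 2.66 and 3.40 for libraries labelled db/db-GABP-KD. After median of ratios its means were 2.34, 2.85, 2.71 and 3.54 in the same order. Neither label showed a called change: with GABP-OE the log2 fold change was 0.57 (limma adjusted p = 0.43), or 0.19 after median of ratios with overlapping libraries, and with GABP-KD it was 0.84 (limma adjusted p = 0.34), or 0.31. Gabpa thus stood no lower under the GABP-KD label than in db/db-veh, its higher deposited level under the GABP-OE label did not pass the test, and directions given for those libraries rest on a label that Gabpa does not bear out. Of its exon bases 6.98% are shared with Atp5j on the opposite strand. The beta subunits were not called either. For Gabpb1 the log2 fold change was 0.61 with GABP-OE (limma adjusted p = 0.47) and 0.51 with GABP-KD (limma adjusted p = 0.46). For Gabpb2 it was 0.36 (limma adjusted p = 0.51) and 0.45 (limma adjusted p = 0.37) in the same order. After median of ratios the values were 0.28 and 0.05 for Gabpb1, and 0.13 and 0.18 for Gabpb2. As deposited Gabpb1 measured 4.26, 1.02 and 1.14 FPKM in db/db-GABP-KD 1 to 3, against 1.39, 0.619 and 1.46 in db/db-veh 1 to 3. Its higher mean under the GABP-KD label thus rested on db/db-GABP-KD 1, the library with the lowest mitochondrial share. All 10 markers of kidney segments, from Slc34a1 of the proximal tubule to Nphs1 of the podocyte, were above 0 in every library. One of them, Slc12a1, the salt transporter of the thick ascending limb, was at 55.2 ± 31.3 FPKM in db/db-veh and 15.6 ± 5.01 under the GABP-KD label, a log2 fold change of -1.69 (limma adjusted p = 0.34), called after median of ratios (-2.29, limma adjusted p = 0.0232). Of the 10 markers 1 was thus called there. Over the alternative settings 0 to 158 of 12897 genes were called in that comparison, and the share after median of ratios is not given. The part of Slc12a1 in the results for those libraries was not tested.

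Gli1, the zinc-finger activator of the pathway (ENSMUSG00000025407, GRCm38 chromosome 10, 127329882 to 127341974, minus strand, 13 merged exons), was highest in db/m-GABP-OE. It measured 0.241, 0.176 and 0.0643 FPKM in db/m-veh 1 to 3, from 11, 6 and 3 fragments. In db/m-GABP-OE it measured 0.643, 1.09 and 2.38 FPKM, from 29, 53 and 102 fragments. All 3 libraries lay above all 3 controls, beside 30.4% of all genes tested, and db/m-GABP-OE 3 was far above the other 2. The mean was 1.37 ± 0.900 FPKM (SD, n = 3) against 0.161 ± 0.0893 in db/m-veh, and the summed fragments, 184 against 20, gave a depth-adjusted ratio of 8.52 (95% exact interval 5.36 to 14.3, counting error only). In the limma fit across all genes, on log2(FPKM + 0.5), Gli1 rose by 1.40 (SE 0.35, 95% interval 0.67 to 2.14, adjusted p = 0.0486). That scale understates the change of so low a gene. In bulk tissue, more cells of a type and more RNA per cell cannot be told apart, nor fewer and less.

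The call lay at the edge of the threshold of 0.05. After median of ratios the log2 fold change was 1.13 (95% interval 0.38 to 1.88, limma adjusted p = 0.31) and the fragment ratio 6.40 (4.03 to 10.7). The 3 libraries were still above all 3 controls, beside 9.71% of all genes tested. Of 25 alternative settings, all kept the direction and 9 kept the call, with limma adjusted p from 0.000517 to 0.382. Leaving out db/m-GABP-OE 3 gave a log2 fold change of 1.04 and ended the call, as did leaving out db/m-GABP-OE 2 (1.47) or any 1 db/m-veh library (1.30 to 1.49). Leaving out db/db-veh 1, db/db-veh 3 or db/db-GABP-KD 2, which enter only the shared spread, also ended it at an unchanged 1.40. By exact permutation of the group means the two-sided p was 0.1, the smallest that 3 against 3 libraries allow (0.34 after Benjamini-Hochberg adjustment over the 27 tests of 9 genes in 3 comparisons).

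In diabetic kidney the 3 vehicle libraries differed widely in Gli1. They measured 0.797, 0.0260 and 0.652 FPKM, from 27, 1 and 25 fragments, so that 2 libraries lay above every db/m-veh library and db/db-veh 2 below all of them. The db/db-veh 2 library also had the largest mitochondrial share and the fewest nuclear fragments, 1.08 M, and their part in its Gli1 level was not tested. After median of ratios its Gli1 level was still 0.0494, against 0.867 and 0.813 in the other two. Relative to db/m-veh the log2 fold change was 0.49 (SE 0.35, 95% interval -0.24 to 1.23, limma adjusted p = 0.63), which did not pass the test.

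Libraries labelled db/db-GABP-KD held almost no Gli1, with 1, 1 and 3 fragments, or 0.0237, 0.0233 and 0.0854 FPKM. These 5 fragments compare with 53 in db/db-veh, a depth-adjusted ratio of 0.0869 (95% exact interval 0.0271 to 0.216, counting error only). Because db/db-veh 2 was as low, the groups overlapped, and the exact permutation p was 0.2. The log2 fold change was -0.76 (SE 0.35, 95% interval -1.50 to -0.03, limma adjusted p = 0.34), or -0.87 after median of ratios (limma adjusted p = 0.68). Without db/db-veh 2 it was -1.17 (limma adjusted p = 0.67, range over all alternatives 0.11 to 0.83), and without db/db-veh 1 it was -0.52. The change with GABP-OE less the change with GABP-KD was 2.17 on the log2 scale (SE 0.49, 95% interval 1.13 to 3.21, limma adjusted p = 0.15). It passed with library weights (2.35) and without db/db-veh 2 (2.57), and in no other of 24 alternatives. Ordered by mean, Gli1 ran from db/db-GABP-KD (0.0442 FPKM) through db/m-veh (0.161) and db/db-veh (0.492) to db/m-GABP-OE (1.37), and each neighbouring pair in that order overlapped.

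**Figure D1:**
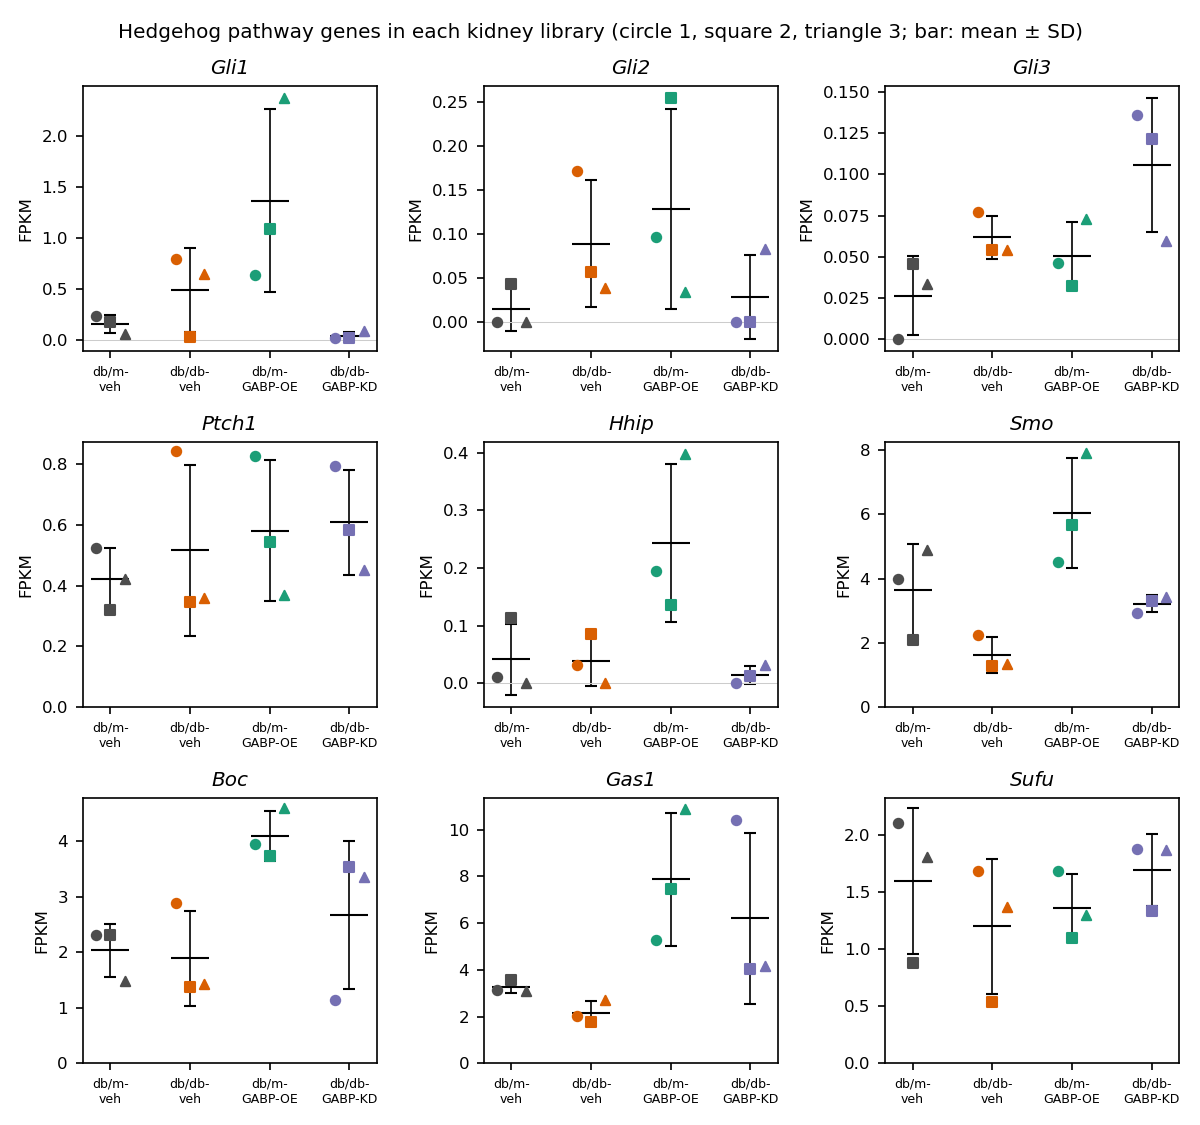
Expression in FPKM (vertical axes, separate scale for each gene) of the 9 Hedgehog pathway genes in the 4 groups (horizontal axes). Points are libraries, and bars give the mean and SD of 3. Gli1 is at 0.643 to 2.38 in db/m-GABP-OE and at or under 0.241 in db/m-veh, while Ptch1 lies between 0.321 and 0.842 throughout.

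Of the 9 genes, 6 reached the level set for testing, 0.3 FPKM or more in 3 or more libraries, and Gli2, Gli3 and Hhip did not. Gli1 reached it in 5 libraries, the 3 of db/m-GABP-OE and 2 of db/db-veh, so the filter passed it through groups where it was high. With db/m-GABP-OE 1 of the 6 was called, Gli1, beside 1.9% of all genes tested (245 of 12897). None was called after median of ratios, beside 0.209% of all genes. An unadjusted limma p under 0.05 was reached by 3 of the 6 as deposited (1941 of 12897 genes in all) and by 2 after median of ratios (968), while voom, limma's count-based weighting of the recovered fragments, also called none. Between the vehicle groups 0 of 6 were called, beside 0.093% of all genes, and 1 of 6 had an unadjusted limma p under 0.05 (1489 genes in all). With libraries labelled db/db-GABP-KD 0 of 6 were called, beside 0% of all genes, and 3 of 6 had an unadjusted limma p under 0.05 (1839 genes in all). For the difference between the effects of GABP-OE and GABP-KD the count was 0 of 6, beside 0.132% of all genes, and 1 of 6, Gli1, at an unadjusted p under 0.05 (702 genes in all). By voom no member was called in these 3 comparisons.

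**Figure D2:**
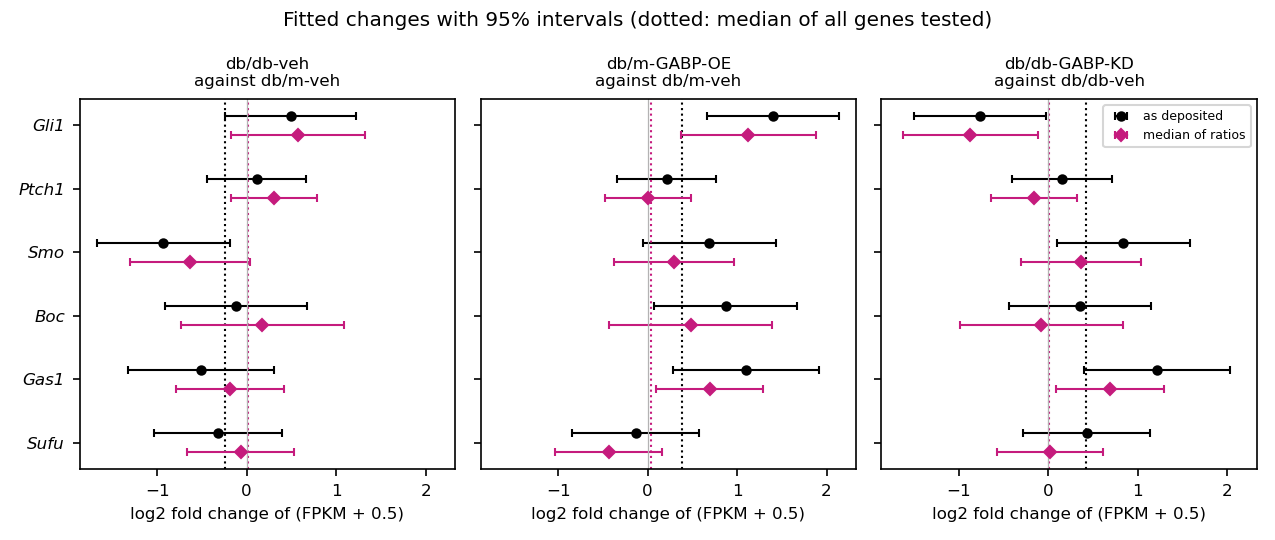
Log2 fold changes of (FPKM + 0.5) from limma (horizontal axes) with 95% intervals for the 6 genes tested, in 3 comparisons, as deposited (black circles) and after median of ratios (pink diamonds). Dotted lines mark the median of all 12897 genes. Gli1 is at 1.40 and 1.13 in db/m-GABP-OE and at -0.76 and -0.87 in db/db-GABP-KD, the one gene of the 6 below 0 there on the deposited scale.

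Gli2 and Gli3, the factors that carry the signal before Gli1 is made, were close to the limit of detection. Gli2 (ENSMUSG00000048402, chromosome 1, 118834132 to 119053619, minus strand) had 0, 2 and 0 fragments in db/m-veh and 8, 3 and 2 for db/db-veh, then 6, 17 and 2 for db/m-GABP-OE, with 0, 0 and 4 for libraries labelled db/db-GABP-KD. No library passed 0.255 FPKM, and a count of 0 still allows up to 0.0468 to 0.0517 FPKM in the 4 libraries without a fragment (a limit of 3 fragments). The ratio of db/m-GABP-OE to db/m-veh was 11.6, with a counting interval of 2.89 to 101 around 25 and 2 fragments, and the libraries overlapped (exact permutation p = 0.2). Most of those fragments, 17 of 25, came from db/m-GABP-OE 2, whereas Gli1 was highest in db/m-GABP-OE 3.

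Gli3, which in the absence of ligand is trimmed to a repressor (ENSMUSG00000021318, chromosome 13, 15463235 to 15730026, plus strand), had its groups in another order than Gli1. It had 0, 3 and 3 fragments in db/m-veh and 5, 4 and 4 for db/db-veh, then 4, 3 and 6 for db/m-GABP-OE, with 11, 10 and 4 for libraries labelled db/db-GABP-KD. Its highest mean was in the libraries labelled GABP-KD, 0.106 ± 0.0407 FPKM, where Gli1 was lowest. All 3 db/db-veh libraries (0.0541 to 0.0769 FPKM) lay above all 3 of db/m-veh (0 to 0.0459) on both scales, beside 1.46% of all genes tested as deposited and 8.33% after median of ratios. Those shares cover only genes that passed the filter, which Gli3 did not. With 13 fragments against 6 the ratio was 2.47 as deposited (95% exact interval 0.877 to 7.93), within counting error of no difference, and 3.24 (1.15 to 10.4) after median of ratios.

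Ptch1, the receptor and a widely used readout of the pathway (ENSMUSG00000021466, chromosome 13, 63508328 to 63573598, minus strand), was called in no comparison. It measured 0.524, 0.321 and 0.423 FPKM in db/m-veh and 0.842, 0.348 and 0.358 for db/db-veh, then 0.827, 0.545 and 0.369 for db/m-GABP-OE, with 0.793, 0.583 and 0.451 for libraries labelled db/db-GABP-KD. Within db/m-GABP-OE the order of the libraries was the reverse of that of Gli1: the library with the most Gli1 had the least Ptch1. The log2 fold change in db/m-GABP-OE was 0.21 (95% interval -0.34 to 0.77, limma adjusted p = 0.68), and 0.00 (-0.48 to 0.49) after median of ratios. Whether its change differed from that of Gli1 was not tested, and the intervals of both genes overlap. In the other comparisons Ptch1 was at 0.11 and 0.15, with limma adjusted p of 0.92 and 0.74. The last of these turned to -0.16 after median of ratios.

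Hhip, a surface protein that binds ligand and that the pathway itself induces (ENSMUSG00000064325, chromosome 8, 79965851 to 80058006, minus strand), stood highest in db/m-GABP-OE, as Gli1 did. It had 16, 12 and 31 fragments there (0.195, 0.136 and 0.398 FPKM) against 1, 7 and 0 in db/m-veh (0.0121, 0.113 and 0 FPKM). Fragments summed to 59 against 8, a ratio of 6.83 (95% exact interval 3.25 to 16.6, counting error only). As deposited all 3 libraries lay above all 3 controls (exact permutation p = 0.1), beside 30.4% of all genes tested. After median of ratios db/m-GABP-OE 2, at 0.105, fell under db/m-veh 2, at 0.138, and the ratio was 5.13 (2.44 to 12.4). In db/db-veh it had 2, 6 and 0 fragments and in the libraries labelled GABP-KD 0, 1 and 2, a ratio of 0.346 with a counting interval of 0.0590 to 1.44. Unlike Gli1, Hhip was at its highest of the diabetic vehicle libraries in db/db-veh 2, the library with 1 Gli1 fragment.

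Smo, the transducer that Ptch1 restrains (ENSMUSG00000001761, chromosome 6, 29735503 to 29761365, plus strand), was among the 3 members with the highest levels and differed between groups in another order than Gli1. It measured 3.99, 2.09 and 4.90 FPKM in db/m-veh and 2.26, 1.27 and 1.34 for db/db-veh, then 4.53, 5.68 and 7.91 for db/m-GABP-OE, with 2.93, 3.30 and 3.44 for libraries labelled db/db-GABP-KD. Diabetic vehicle libraries were the low ones, though db/db-veh 1 lay just above db/m-veh 2. Their log2 fold change was -0.93 (SE 0.35, 95% interval -1.68 to -0.19, limma adjusted p = 0.32). After median of ratios it was -0.64 (95% interval -1.31 to 0.03), with all 3 db/db-veh libraries below all 3 of db/m-veh, beside 9.03% of all genes tested. Library weights alone of 25 alternatives brought it past the threshold, at -1.18 (limma adjusted p = 0.0339, range 0.0339 to 0.86). In libraries labelled GABP-KD Smo lay above all 3 db/db-veh libraries as deposited, at a log2 fold change of 0.84 (limma adjusted p = 0.34), beside 17.3% of all genes tested, and after median of ratios the groups overlapped, with 0.36. In db/m-GABP-OE the value was 0.69 (limma adjusted p = 0.37), or 0.29 after median of ratios.

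Sufu, which holds GLI proteins in the cytoplasm (ENSMUSG00000025231, chromosome 19, 46396896 to 46488804, plus strand), overlapped in every comparison, as Ptch1 did. It measured 2.10, 0.878 and 1.81 FPKM in db/m-veh and 1.69, 1.10 and 1.30 in db/m-GABP-OE. The other groups spanned 0.540 to 1.69 in db/db-veh and 1.33 to 1.88 in db/db-GABP-KD, and the overlap held on both scales. Log2 fold changes were -0.32 with the db/db genotype, -0.13 with GABP-OE and 0.43 with the GABP-KD label, with limma adjusted p from 0.47 to 0.83. With median of ratios scaling they were -0.07, -0.44 and 0.02.

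Boc, an immunoglobulin-family co-receptor (ENSMUSG00000022687, chromosome 16, 44485049 to 44558897, minus strand), was higher in all 3 db/m-GABP-OE libraries than in any db/m-veh library on both scales, beside 30.4% of all genes tested as deposited and 9.71% after median of ratios. It measured 2.31, 2.31 and 1.49 FPKM in db/m-veh and 3.96, 3.73 and 4.60 in db/m-GABP-OE. The log2 fold change was 0.87 (SE 0.38, 95% interval 0.08 to 1.67, limma adjusted p = 0.28), or 0.48 (-0.43 to 1.40) after median of ratios, so Boc did not pass the test. The 3 db/db-veh libraries were at 2.88, 1.37 and 1.43 FPKM and those labelled GABP-KD at 1.14, 3.53 and 3.36, the first of them well under the other two. Its log2 fold change in that group was 0.35, or -0.08 after scaling by median of ratios.

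Gas1, a membrane-anchored co-receptor (ENSMUSG00000052957, chromosome 13, 60174405 to 60177365, minus strand, 1 exon), had the highest mean of the 9 over the 12 libraries and stood higher in both manipulated groups. It measured 3.14, 3.57 and 3.07 FPKM in db/m-veh and 2.04, 1.75 and 2.73 for db/db-veh, then 5.27, 7.45 and 10.9 for db/m-GABP-OE, with 10.4, 4.01 and 4.18 for libraries labelled db/db-GABP-KD. With GABP-OE its log2 fold change was 1.10 (SE 0.39, 95% interval 0.28 to 1.92, limma adjusted p = 0.17), and with the GABP-KD label it was 1.21 (95% interval 0.40 to 2.03, limma adjusted p = 0.34). The values were 0.69 and 0.68 after median of ratios. As deposited the libraries lay wholly above in both comparisons, beside 30.4% of all genes tested with GABP-OE and 17.3% with the GABP-KD label. After median of ratios libraries labelled GABP-KD still lay above all 3 controls, beside 4.62% of all genes tested. The difference between both effects was -0.11 (95% interval -1.27 to 1.04), against 2.17 for Gli1. Without db/db-GABP-KD 1 the value for db/m-GABP-OE passed the test at an unchanged 1.10, and with library weights both Gas1 (1.07) and Boc (0.99) did. Of the exon bases of Gas1, 19.9% are shared with the lincRNA Gm48488 on the opposite strand, and 5.31% of those of Gli1 with the antisense gene Gm47200. No source used states the strand setting of the counting, so reads from such pairs cannot be told apart.

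Counted over all 9 genes without a filter, 4 (Gli1, Hhip, Boc and Gas1) had every db/m-GABP-OE library above every db/m-veh library as deposited, beside 30.4% of all genes tested. On the median of ratios scale 2 did (Gli1 and Boc), beside 9.71%. None lay wholly below, beside 0.923% as deposited. The shares given here cover only genes that passed the filter, which Gli2, Gli3 and Hhip did not, so they are a rough yardstick. The median log2 fold change of the 6 tested was 0.78, beside 0.38 for all genes, and 0.39 beside 0.04 after median of ratios. Among libraries labelled db/db-GABP-KD 2 of 9 lay wholly above (Smo and Gas1), beside 17.3% of all genes tested, and 1 (Gas1) after median of ratios, beside 4.62%. There the median of the 6 was 0.39 beside 0.42, or -0.03 beside 0.00 after median of ratios. Between the vehicle groups Gli3 lay above and Gas1 below as deposited, beside 1.46% and 14.4% of all genes, and the median of the 6 was -0.22 beside -0.24.

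GABP binds the ETS letters GGAA, best within CCGGAAG. RefSeq promoters (GRCm38.p6, 250 bases before to 50 after the start) were matched by symbol for 7 of the 9 genes, all but Gli1 and Boc, so that nothing here bears on the Gli1 promoter. CCGGAAG, searched on both strands, was in 0 of these 7 windows and in 8.86% of all 32851 windows of the table. CGGAA, a part of that motif searched after the data were seen, was in 2 of 7, Gas1 and Gli3, against 29.9% of all windows. The shorter GGAA, part of both, was in 5 of 7 against 96.0%. The GLI site GACCACCCA was in 0 of 7 against 0.253% of all windows, and its overlapping shorter form GGGTGGTC in 0 of 7 against 0.807%. Below are the 250 bases before the start of Gas1 (chr13:60177536-60177785, minus strand) and of Hhip (chr8:80058009-80058258, minus strand), the 2 genes with a sequence among the 4 that stood wholly above their controls in db/m-GABP-OE, and of Gabpa (chr16:84834874-84835123, plus strand), shown because it holds the full motif. Capitals mark CCGGAAG or CGGAA on either strand, 107 bases before the start in Gas1 and 93 bases before it, on the reverse strand, in Gabpa. These starts are those of RefSeq and can differ from the gene bounds given in this report. By those bounds Gabpa begins at 84834925, ahead of its marked letters, and the Ptch1 window lies inside the gene. A match describes letters only, and its absence from a window says nothing of binding elsewhere.
Gas1: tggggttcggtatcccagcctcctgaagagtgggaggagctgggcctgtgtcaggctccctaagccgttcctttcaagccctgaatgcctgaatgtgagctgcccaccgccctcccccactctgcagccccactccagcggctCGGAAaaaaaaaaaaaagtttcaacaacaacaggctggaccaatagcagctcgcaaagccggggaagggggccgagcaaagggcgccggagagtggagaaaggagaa
Hhip: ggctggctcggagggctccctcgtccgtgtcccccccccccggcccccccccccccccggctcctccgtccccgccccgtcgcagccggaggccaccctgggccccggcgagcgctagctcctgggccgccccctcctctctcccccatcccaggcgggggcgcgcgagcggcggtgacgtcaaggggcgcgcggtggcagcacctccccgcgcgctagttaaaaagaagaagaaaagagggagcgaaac
Gabpa: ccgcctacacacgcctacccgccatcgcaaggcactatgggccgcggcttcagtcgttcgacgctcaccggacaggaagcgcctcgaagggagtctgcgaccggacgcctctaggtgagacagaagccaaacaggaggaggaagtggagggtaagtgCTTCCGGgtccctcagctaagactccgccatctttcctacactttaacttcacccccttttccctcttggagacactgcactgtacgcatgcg

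The rest of the pathway was followed in 58 further genes, of which 57 were found by symbol and 49 tested. In db/m-GABP-OE 1 of the 49 was called, Igfbp6, beside 1.9% of all genes tested, and in the other comparisons 0 of 49 were. Igfbp6, an IGF-binding protein listed among Hedgehog targets, rose from 0.492 ± 0.451 FPKM (range 0.0963 to 0.983) in db/m-veh to 3.81 ± 2.27 (2.09 to 6.39) in db/m-GABP-OE, a log2 fold change of 2.10 (SE 0.40, limma adjusted p = 0.0131). It was 1.73 after median of ratios (limma adjusted p = 0.13). In the diabetic groups it stood at 0.177 and 0.176 FPKM, both near 0. Over the 49 the median log2 fold change in db/m-GABP-OE was 0.43, beside 0.38 for all genes, and 0.10 beside 0.04 after median of ratios.

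Among 9 ligands and genes of ligand release, Ihh was the ligand with the highest level, with a mean of 3.58 FPKM over the 12 libraries, and Scube3 and Scube1, which help release ligand, followed at 0.788 and 0.648. Ihh was at 5.01 ± 1.96 FPKM in db/m-veh and 2.39 ± 1.61 for db/db-veh, then 3.19 ± 0.290 for db/m-GABP-OE, with 3.72 ± 3.28 for libraries labelled db/db-GABP-KD, and its log2 fold change in db/m-GABP-OE was -0.52 (limma adjusted p = 0.62), or -0.89 after median of ratios, opposite in sign to that of Gli1. Scube1 was at 0.104 ± 0.0733 in db/m-veh and 1.42 ± 1.07 in db/m-GABP-OE (1.54, limma adjusted p = 0.081, and 1.27, limma adjusted p = 0.53, after median of ratios). The other ligands, Shh and Dhh, were too low to test, at means of 0.212 and 0.0833 FPKM. Shh was at 0.133 ± 0.115 FPKM (0 to 0.206, 9 fragments) in db/m-veh and 0.527 ± 0.321 (0.217 to 0.859, 40 fragments) in db/m-GABP-OE. As deposited it thus lay wholly above, beside 30.4% of all genes tested, which passed a filter that Shh did not. Its means were 0.0995 in db/db-veh and 0.0881 in db/db-GABP-KD. Dhh was at 0.101 in db/m-veh and 0.0749 in db/m-GABP-OE.

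All 5 further surface proteins were tested and none was called. Lrp2, the endocytic receptor megalin, Gpc4 and Gpc3 were the highest of them, at 12.3, 11.8 and 7.01 FPKM on average. Of 12 cilium and relay genes found 11 were tested, and Evc, Evc2 and Ift172 led in level, Evc with 7.82 ± 4.10 FPKM in db/m-veh and 10.4 ± 1.26 in db/m-GABP-OE (0.50, limma adjusted p = 0.56, and 0.08 after median of ratios). In db/db-GABP-KD all 11 were below 0 after median of ratios, with a median of -0.21, beside 49.6% of all genes below 0. As deposited 9 of 11 were above 0, where 13.5% of all genes lay below 0. After median of ratios the 12 genes summed to 11.6, 21.2 and 22.1 in db/db-GABP-KD 1 to 3. In db/db-veh 1 to 3 the sums were 26.0, 21.7 and 19.0, so the groups overlapped and db/db-GABP-KD 1 was the low library. The kinases and turnover factors of GLI proteins, 11 in number, were led by Spop, Cul3 and Prkaca, at 15.6, 8.46 and 7.52 FPKM on average, and 0 of 11 were called. Of 20 genes known as Hedgehog targets in several tissues 18 were tested, with a median in db/m-GABP-OE of 0.52 beside 0.38 for all genes (0.25 beside 0.04 after median of ratios). Bmp4, Tbx2 and Ccnd1 were the highest in level. Bmp4, a secreted growth factor, was at 12.3 ± 8.23 FPKM in db/m-veh and 31.9 ± 12.6 in db/m-GABP-OE (1.45, limma adjusted p = 0.13, and 1.01, limma adjusted p = 0.56, after median of ratios), while Tbx2 and Ccnd1 were at -0.01 and -0.02 as deposited and at -0.43 and -0.41 after median of ratios, neither called.

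Of 12 markers of the cells known to hold Gli1, 2 were called in the same comparison, beside 1.9% of all genes tested, and none after median of ratios. All 12 fibroblast and perivascular genes had log2 fold changes above 0 with GABP-OE, with a median of 1.81, beside 0.38 for all genes, of which 11.5% lay below 0. With median of ratios scaling 11 of 12 were above 0, with a median of 1.37 beside 0.04 for all genes, of which 44.1% lay below 0. Col3a1, a fibrillar collagen, and Thy1, a fibroblast surface protein, were called as deposited (2.28 and 2.49, limma adjusted p = 0.0497 and 0.00474), and neither was after median of ratios (1.85 and 2.10, limma adjusted p = 0.49 and 0.075). The list's summed FPKM was 76.3 to 126 in db/m-veh and 50.1 to 98.5 for db/db-veh, then 217 to 284 for db/m-GABP-OE, with 72.1 to 139 for libraries labelled db/db-GABP-KD, and no member was at 0 in any library. After median of ratios the sum was 70.6 to 154 in db/m-veh and 172 to 214 in db/m-GABP-OE. The part of these cells in the Gli1 result was not tested.

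All 9 genes were also divided by the fibroblast sum, a ratio chosen after the data were seen and given as a description with no test. The divisor had a mean of 94.7 FPKM in db/m-veh and 249 in db/m-GABP-OE. Any gene that rose by less than this sum therefore falls on the ratio. Gli1 per 1000 fibroblast FPKM was 2.94, 1.40 and 0.843 in db/m-veh and 2.97, 4.44 and 8.39 in db/m-GABP-OE, above in all 3 libraries, the lowest by a narrow margin. Boc, higher as FPKM, was lower on this ratio, at 28.2, 18.3 and 19.6 in db/m-veh and 18.3, 15.1 and 16.2 in db/m-GABP-OE. All 3 libraries lay below, the closest pair both at 18.3 (22.0 ± 5.38 against 16.5 ± 1.60). Gas1 overlapped, at 35.7 ± 6.43 in db/m-veh and 31.0 ± 7.06 in db/m-GABP-OE, and so did Hhip, at 0.348 ± 0.482 and 0.952 ± 0.427, and the other 5 genes. In the diabetic groups Gli1 per 1000 fibroblast FPKM was 8.09, 0.303 and 13.0 in db/db-veh and 0.329, 0.181 and 0.616 in db/db-GABP-KD, and these groups overlapped. Of the other genes, Gli2 and Gli3 lay wholly above db/m-veh in db/db-veh on this ratio, and Gli2 wholly below db/db-veh in libraries labelled GABP-KD, all from the few fragments given above. The share of all genes that separate on this ratio was not computed. The separations of Gli1, Boc, Gli2 and Gli3 on it thus have no yardstick.

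**Figure D3:**
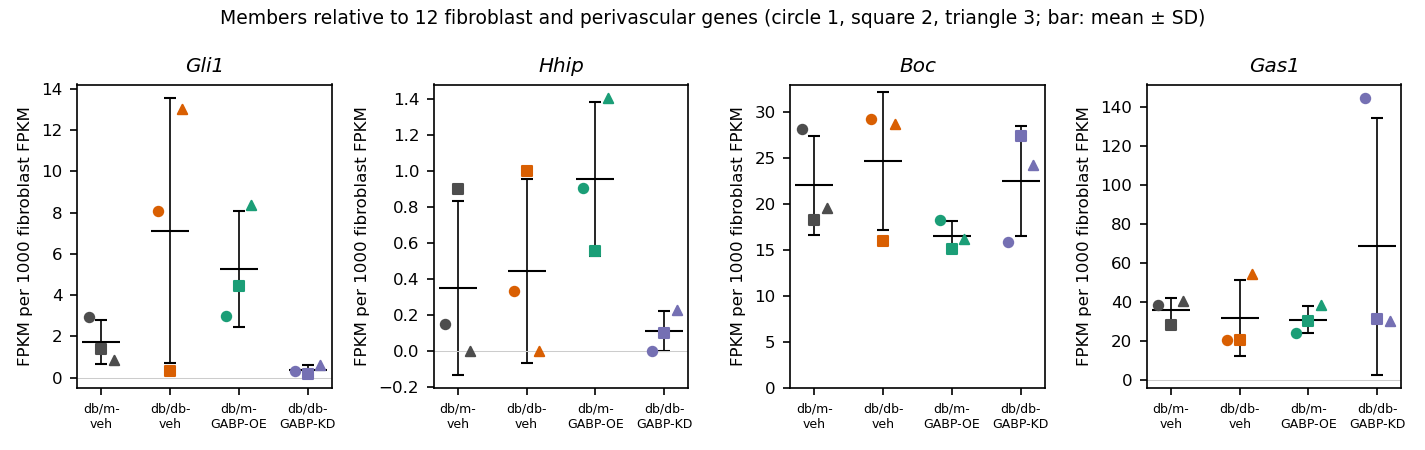
Gli1, Hhip, Boc and Gas1 as FPKM per 1000 summed FPKM of 12 fibroblast and perivascular genes (vertical axes, separate scale for each gene) in the 4 groups (horizontal axes). Points are libraries, and bars give the mean and SD of 3. Gli1 is above db/m-veh in all 3 db/m-GABP-OE libraries, and Boc is below it. The divisor was itself higher in db/m-GABP-OE, so a gene that rose less than it falls here.

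Markers of other cells differed between libraries, but no nerve, urothelial, lymphoid, fat or adrenal gene tested was called in any comparison on either scale. Those tested were 3 of 5 nerve, 7 of 7 urothelial, 2 of 5 lymphoid, 3 of 5 fat and 2 of 4 adrenal genes. Calls were also rare among all genes tested as deposited: 0.093% between the vehicle groups, 1.9% with GABP-OE and 0% with the GABP-KD label. The lack of calls in such short lists thus does not show that these tissues were alike between groups. The 5 nerve and Schwann cell genes summed to 0.946 to 2.02 FPKM in db/m-veh and 0.654 to 2.24 for db/db-veh, then 1.92 to 4.45 for db/m-GABP-OE, with 0.330 to 0.432 for libraries labelled db/db-GABP-KD, and the last group lay wholly below db/db-veh. In that group the nerve gene Gfra3 was at 0 in all 3 libraries. The 7 genes of renal pelvis urothelium summed to 10.9, 1.34 and 8.59 FPKM in db/db-veh 1 to 3, the same libraries in which Gli1 was high, low and high, and to 4.46, 6.36 and 16.8 in db/m-GABP-OE 1 to 3. In the last of these Psca alone made up 12.9 FPKM, and the other 6 genes summed to 3.82, 3.01 and 3.89 over those 3 libraries, without the order of Gli1, and to 9.14, 1.34 and 7.69 in db/db-veh. The 7 genes did not follow Gli1 in db/db-GABP-KD 1, where they summed to 15.9 with 5 of 7 genes at 0. Lymphoid genes summed to 0.921 to 2.05 FPKM in db/m-veh, 2.02 to 6.06 in db/m-GABP-OE, 0.155 to 0.579 in db/db-veh and 0 to 0.109 in db/db-GABP-KD. Fat and adrenal genes also differed within db/db-veh, in libraries 1 to 3: 5 fat genes summed to 19.0, 5.91 and 6.54 FPKM and 4 adrenal genes to 3.09, 0.158 and 4.34, with the defining adrenal genes Cyp11a1 and Cyp11b1 at 0 in all 12 libraries. Red blood cell genes had medians of -1.61, -1.04 and -1.58 in the 3 comparisons, with none of 5 called. The part of nerve, urothelial, lymphoid, fat or adrenal tissue in the Gli1 values was not tested.

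**Figure D4:**
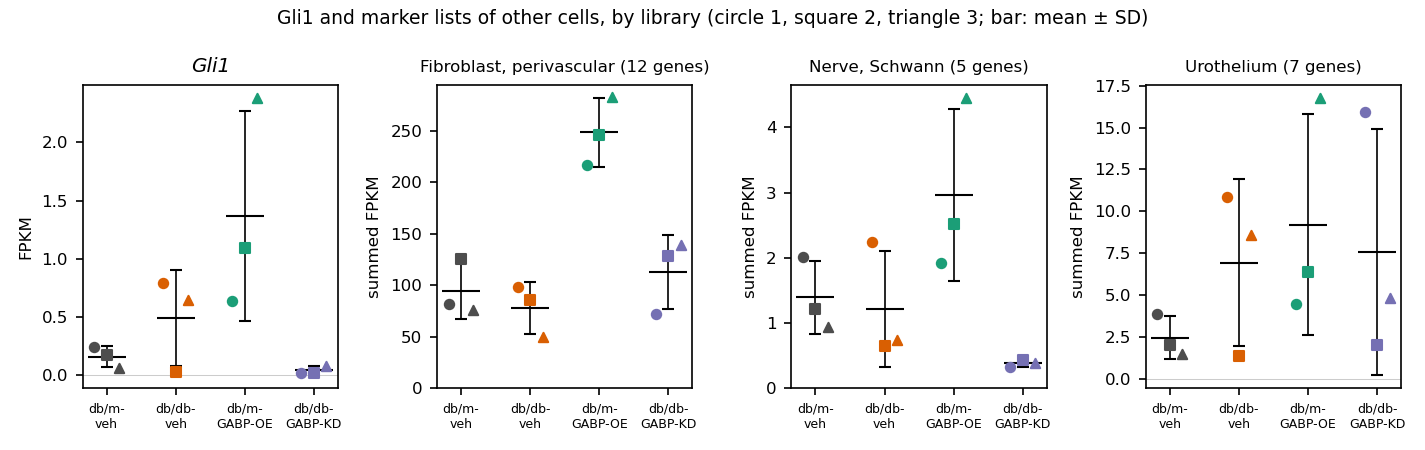
Gli1 in FPKM (left) beside the summed FPKM of marker lists for fibroblasts and perivascular cells (12 genes), nerve and Schwann cells (5) and urothelium (7), by group (horizontal axes). Points are libraries, and bars give the mean and SD of 3. The fibroblast sum is 217 to 284 in db/m-GABP-OE and at most 139 elsewhere, and the urothelial sum is low in db/db-veh 2, the library with 0.0260 FPKM of Gli1.

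Genes whose levels most resembled those of Gli1 were ranked by Pearson's r over the 12 libraries, on log2(FPKM + 0.5) after median of ratios, among 12164 genes. These libraries share groups, depth and tissue makeup, so r is a description. The 5 highest were Pparg (0.94), a nuclear receptor of fat cells and urothelium, Sox10 (0.90), a transcription factor of Schwann cells that is also on the nerve list, Cacna1a (0.90), a neuronal calcium channel subunit, Sprr1a (0.88), a protein of stratified epithelia, and Zfp97 (0.88), a zinc-finger gene. All 5 stayed in the top 50 on the deposited scale. Without db/m-GABP-OE 3 and db/db-veh 1, the libraries farthest from the median of Gli1, their r was 0.87, 0.77, 0.80, 0.85 and 0.90. Genes were ranked only if they reached 0.3 FPKM in 3 or more libraries. Sox10 did so only in db/db-veh 1 and db/m-GABP-OE 2 and 3, and Cacna1a only in db/m-GABP-OE. Both thus entered the ranking only through libraries where Gli1 was high, and their likeness is no support. Sox10 had 0 to 21 fragments in a library. Pparg had 19, 1 and 14 fragments in db/db-veh 1 to 3 and 19, 23 and 53 in db/m-GABP-OE 1 to 3, so it shared the low db/db-veh 2 and the high db/m-GABP-OE 3 of Gli1.

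The most opposite were Tmem251 (-0.94), Ippk (-0.93) and Nsun2 (-0.85), at -0.39 to -0.47 on the deposited scale. None of the other 5 tested pathway genes came near the top: Boc was at 0.32, Smo at 0.26, Gas1 at 0.25, Ptch1 at -0.20 and Sufu at -0.21. As deposited they were at 0.58, 0.47, 0.39, 0.02 and -0.01 in the same order, with Boc at rank 1506 of 12164. Gabpa was at -0.45 after median of ratios and 0.02 as deposited, Gabpb1 at 0.30 and 0.33, and Gabpb2 at -0.15 and 0.20.

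**Figure D5:**
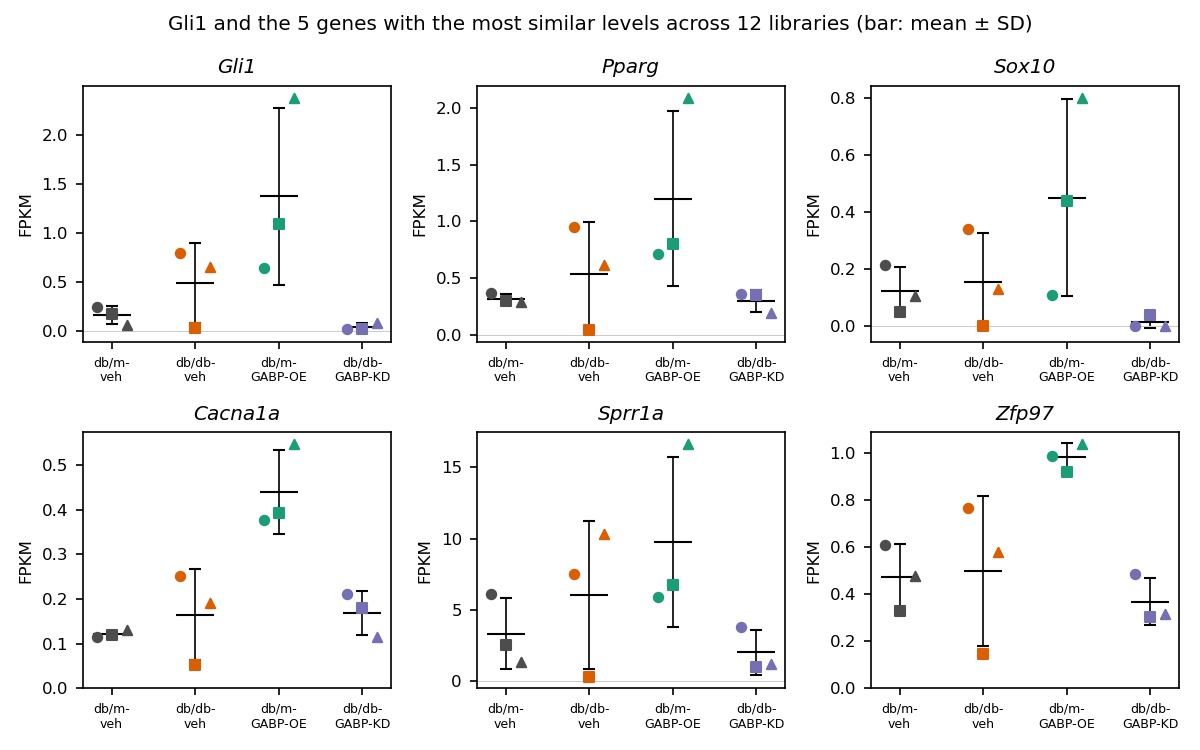
Expression in FPKM (vertical axes, separate scale for each gene) of Gli1 and the 5 genes with the highest correlation to it across 12 libraries, by group (horizontal axes). Points are libraries (circle 1, square 2, triangle 3), and bars give the mean and SD of 3. All 6 genes are lowest within db/db-veh in the second library, where Gli1 had 1 fragment and Pparg 1.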

How the data were processed

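The authors deposited 1 FPKM value per gene and library. Per the submitters' processing notes HTSeq and GRCm39 were used, and no source used here names an aligner, annotation or strand setting. Exon lengths from GENCODE M21 (GRCm38) gave whole fragments, to within 0.05, from the deposited FPKM of 98.3% of genes that have a length, so coordinates are given in GRCm38. Duplicates could not be removed, and counting intervals (95%, exact) and the limit of 3 fragments cover counting error only.

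The test was limma 3.58.1 (R 4.3.3) on the log2 of deposited FPKM plus 0.5, with genes kept at 0.3 FPKM or more in 3 or more libraries, all 12 libraries in 1 fit, with a variance trend, two-sided, Benjamini-Hochberg adjusted over all genes tested, called under 0.05. It was tried on simulated counts with the same makeup in every library and changes only in genes with many fragments. That simulation does not cover a gene as low as Gli1 or libraries that differ in mitochondrial share. Median of ratios used 5872 genes with FPKM of at least 1 in every library. Replicate numbers were not used to pair libraries, because no label says that they do. No value column was left unused. Exact tests used scipy 1.17.1, tables pandas 2.3.3 and numpy 2.4.6, and figures matplotlib 3.10.9, under Python 3.11.15.

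The 9 genes, the lists and the tests were chosen with earlier results of these data known. All 9 genes and the GABP subunits are named, with called members and the 3 highest-level members of each pathway list, and the 5 most and 3 least alike to Gli1. Shh, Dhh and the marker genes were named in addition, after their values were seen. Alternatives were other pseudocounts (0.1 and 1), filters (none, FPKM 1), scalings, variance models, voom and each library left out. Marker lists not described in the report (smooth muscle, endothelium) had no member called as deposited. The values of 1 marker gene are not reported here.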

Additional observations from a re-analysis of the deposited data

How the results depend on the processing

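For Gli1 in db/m-GABP-OE, log2 fold changes that lost the call were 2.38 with a pseudocount of 0.1, 1.40 without a filter or without a variance trend, 1.13 after median of ratios (also without db/db-GABP-KD 1), 1.05 after quantile normalization, 2.98 with voom and 2.69 with voom on median of ratios sizes. With 1 library left out the value ran from 1.04 to 1.71, with the call lost in 8 of 12 such fits. A filter of FPKM 1 leaves Gli1 out. The number of pathway genes called there, 1, was 0 under these settings and the FPKM 1 filter, 3 with library weights and 0 to 2 with 1 library left out. Library weights called 1 pathway gene in db/db-veh against db/m-veh (Smo) and 1 in the difference of effects (Gli1, 2.35); with 1 library left out that count was 0 to 1 and Gli1 1.80 to 2.57. Voom with median of ratios sizes and the joint leave-out were added after seeing the data.

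Directions that turned, none of them called, were those of Boc in db/db-veh (-0.12; 0.18 after median of ratios, 0.14 quantile, 0.038 library weights, 0.048 voom on median of ratios sizes, -0.40 to 0.030 with 1 library left out), Ptch1 there (0.11; -0.11 to 0.22 left out), Ptch1 in db/m-GABP-OE (0.21; -0.13 quantile), Sufu there (-0.13; -0.41 to 0.0495 left out), and in db/db-GABP-KD Ptch1 (0.15; -0.16, -0.10 and -0.18) and Boc (0.35; -0.078, -0.0046 and -0.19) under median of ratios, quantile and voom on median of ratios sizes.

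Genes called in all were 245 in db/m-GABP-OE (10 to 2757 over the alternatives), 12 in db/db-veh (2 to 642), 0 in db/db-GABP-KD (0 to 158) and 17 in the difference (1 to 376). Deviations of same-numbered libraries from their group means had correlations from -0.48 to 0.38, without a common sign. The highest were for replicate 2, at 0.38 between the vehicle groups and 0.33 between db/db-GABP-KD and db/db-veh. With the replicate number as a block Gli1 in db/m-GABP-OE stayed at 1.40 and the difference counted 11 genes. Gli2, Gli3 and Hhip rest on 44, 57 and 78 fragments in all and were not tested in the fit.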
